A study of Mus musculus with 2 samples.

Results

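The genes of gluconeogenesis and liver-type sugar metabolism were examined in the prefrontal cortex (PFC) of mice with and without chronic mild stress (CMS). They comprised 8 genes of 37074 distinct names on the arrays, read by 9 probes. Pck1, G6pc, Fbp1, Pklr, Slc2a2 and Khk were taken as the 6 liver-type members, and Aldoc and Hk1 as the 2 brain-type members. The genes were selected with their signals on these same arrays in view, so that their values are a description and were not tested.

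Male mice of the strain labelled C57Bl/6 N sea were 9 to 10 weeks old at the start. The C group received ordinary care and was housed in groups. The CMS group was housed singly and was exposed for 4 weeks to varied mild stressors, so that housing and stressors cannot be told apart. Total RNA of the PFC was mixed within each group, from 7 mice according to the series text, whereas the methods assigned 10 mice per group to arrays and qRT-PCR. Each pool was labelled with Cy3 and hybridized to 1 Agilent array of the same slide. The spread between mice was therefore not measured.

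Gluconeogenesis makes glucose from lactate, amino acids and glycerol, and it runs mainly in liver and kidney cortex. Most of its reactions are those of glycolysis run backwards, and the few irreversible steps of glycolysis are bypassed by pyruvate carboxylase, phosphoenolpyruvate carboxykinase, fructose bisphosphatase and glucose-6-phosphatase. Many steps of sugar metabolism have separate genes for liver and for brain, and neurons and astrocytes depend on glucose from the blood and on the brain forms of these enzymes.

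Each array carried 59305 spots of 55681 probes without control spots. Of these spots, 65.2% were well above background on the C array and 65.9% on the CMS array, and no spot was saturated. Signals were scaled to a mean of 2500 on each array, and a ratio above 2 or below 0.5 was counted as a difference of more than 2-fold. Where a probe stood out from background on only 1 array, its dim signal was raised to the lowest one well above background, 17.8 in the C pool against 17.6 in the CMS pool, and its ratio is then a bound. A dim signal already above that value was left as measured, and its ratio was also counted as a bound. Spots of the same probe gave log2 ratios with an SD of 0.13, which is an error of the measurement and holds no spread between mice. Errors after the sign ± are those that the scanner software gives for 1 spot, carried over to the log2 ratio.

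Of the 6 liver-type members, 4 were higher in the CMS pool by more than 2-fold, namely Pck1, Fbp1, G6pc and Slc2a2. Over all 27119 genes with a ratio, 1.96% were more than 2-fold higher and 0.564% more than 2-fold lower. The selection used this same contrast, so nothing is read from the difference between these shares. Khk was higher by less than 2-fold and Pklr was not well above background in either pool. Neither brain-type member differed by 2-fold.

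Pck1 (NM_011044) encodes the cytosolic phosphoenolpyruvate carboxykinase, which turns oxaloacetate into phosphoenolpyruvate and commits carbon to gluconeogenesis. Its scaled signal was 72.4 in the C pool against 857 in the CMS pool. The log2 ratio was 3.57 ± 0.22, an 11.8-fold higher signal, which ranked 14 from the highest among the genes with a ratio. Both signals were well above background. Fbp1 (NM_019395), the fructose bisphosphatase of liver and kidney, had signals of 213 in the C pool against 1727 in the CMS pool. Its log2 ratio was 3.02 ± 0.21, or 8.11-fold. G6pc (NM_008061) encodes the glucose-6-phosphatase that releases free glucose from the hepatocyte, and its signals were 131 in the C pool against 830 in the CMS pool. Its log2 ratio was 2.66 ± 0.21, or 6.34-fold. The 3 genes of the bypass steps among the members were thus all higher in the CMS pool, each with both signals well above background. In bulk tissue, fewer cells of a type and less RNA per cell cannot be told apart.

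Slc2a2 (NM_031197), the glucose transporter GLUT2 of hepatocytes and islet cells, was detected only in the CMS pool. In the C pool the signal was 3.92 and could not be told from background. In the CMS pool it was 47.9, or 2.72 times the lowest signal well above background there, here called the detection limit. This limit is not strict, since Pklr had 18.4 in the CMS pool, above the 17.6 there, without being well above background. With the limit of 17.8 in the C pool, the fold of Slc2a2 was at least 2.69 in favor of the CMS pool, a log2 ratio of at least 1.43. The measured signals without the bound gave 3.61 ± 1.46. With normexp background correction and quantile normalization its log2 ratio was 0.68, below 2-fold. Slc2a2 was the member closest above the 2-fold limit and Khk the closest below it.

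Khk (NM_008439) encodes ketohexokinase, which phosphorylates fructose in the liver and is also made at lower levels in other tissues. Its signal was already 1421 in the C pool against 1998 in the CMS pool. The log2 ratio was 0.49 ± 0.20, or 1.41-fold, which lay just above the 95th percentile of all genes with a ratio, 0.46. Pklr (NM_013631), the pyruvate kinase of liver and red cells, had signals of 17.5 in the C pool against 18.4 in the CMS pool. Neither was well above background, and no ratio was taken. The median log2 ratio over the 5 liver-type members with a ratio was 2.66, beside -0.03 over all genes with a ratio.

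Aldoc (NM_009657), the aldolase of brain that is abundant in astrocytes, had signals of 196370 in the C pool against 181923 in the CMS pool. The log2 ratio was -0.11 ± 0.20. Hk1 (NM_001146100), the hexokinase that opens glycolysis in neurons and most other cells, was read by 2 probes. The brighter probe had signals of 40127 in the C pool against 33958 in the CMS pool, giving a log2 ratio of -0.24 ± 0.20. The dimmer probe had 1362 in the C pool against 1231 in the CMS pool, giving a log2 ratio of -0.15 ± 0.20. Both Hk1 probes were thus lower in the CMS pool, the brighter one by slightly more than the error of its spots and the dimmer one by less. Of all genes with a ratio, 58.8% were below 0. The median of Aldoc and Hk1 was -0.18, so that the liver-type median exceeded it by 2.84 on the log2 scale, a difference that does not move when an array is scaled by 1 factor.

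**Figure D1:**
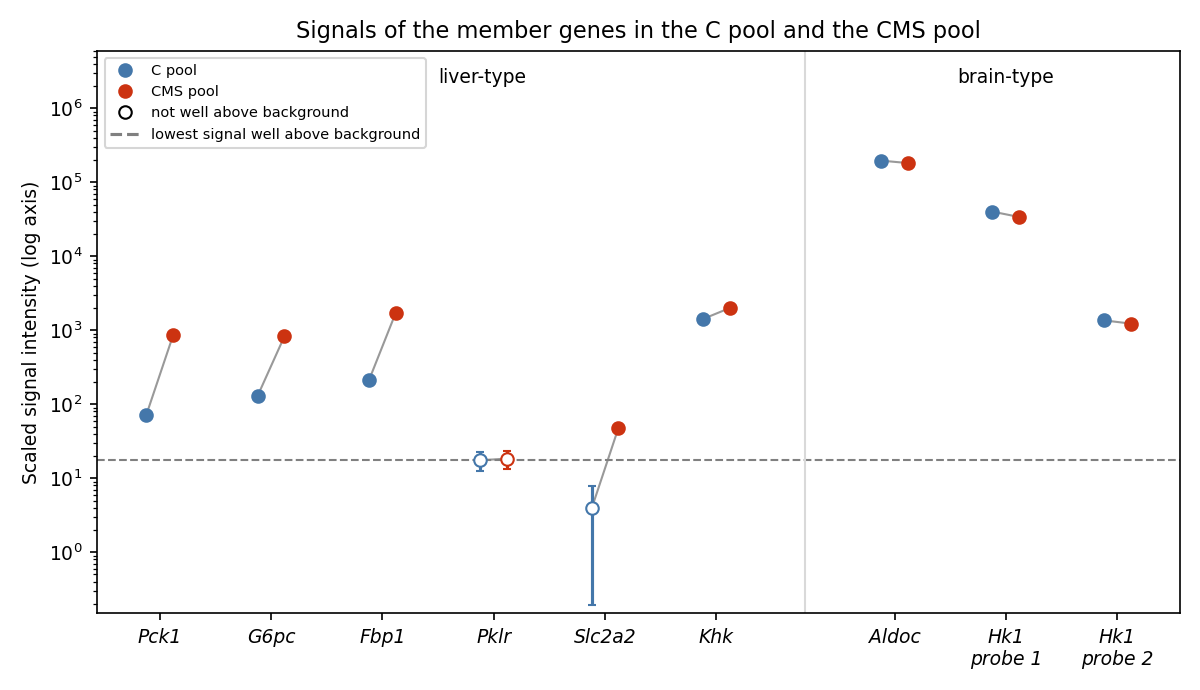
Scaled signal of each member probe in the C pool and the CMS pool on a log axis, with bars for the error of the scanner software and the dashed line at the mean over both arrays of the lowest signal well above background. The lower bar of Slc2a2 in the C pool is clipped because it reaches below 0, and Pck1, G6pc and Fbp1 climb steeply while Aldoc and Hk1 stay nearly level.

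Each member probe had 1 spot, so its position on the array was examined. The spots within 10 rows and columns of a member numbered 134 to 275, and their median log2 ratio lay between -0.08 and 0.01. The areas around the members therefore held no shift of the size seen in Pck1, Fbp1, G6pc or Slc2a2. Log2 ratios of repeated spots varied with brightness, with an SD of 0.26 for probes with a mean signal below 100, 0.11 between 100 and 1000, and 0.056 above 1000. The log2 ratios of Aldoc and Hk1 were larger in size than this last SD, which comes from other probes. Those of Aldoc and the dimmer Hk1 probe were within their scanner error of 0.20. Aldoc and Hk1 both lay above the 5th percentile of all genes with a ratio, -0.40.

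The promoters of the higher liver-type members and of a brain-type member are printed for the letters known as binding motifs of liver and cyclic AMP-response factors. The sequences are those of RefSeq on GRCm38.p6, each 300 bases from 250 before to 50 after the start, and all 8 members were matched. On both strands, 9 motifs were searched, and capitals mark every match. They were the TATA box TATAAA, the full cyclic AMP-response element TGACGTCA and its core TGACG, the single nuclear receptor site AGGTCA, the HNF4 motif CAAAGTCCA, the HNF1 motif GTTAATNAT, the FOXA motif TGTTTAC, the C/EBP motif TTGCNNAA and the E-box CACGTG. The cyclic AMP-response core lies within the full element. The arrays measure RNA and not the use of these promoters.
Pck1, chr2:173152823-173153122, plus strand: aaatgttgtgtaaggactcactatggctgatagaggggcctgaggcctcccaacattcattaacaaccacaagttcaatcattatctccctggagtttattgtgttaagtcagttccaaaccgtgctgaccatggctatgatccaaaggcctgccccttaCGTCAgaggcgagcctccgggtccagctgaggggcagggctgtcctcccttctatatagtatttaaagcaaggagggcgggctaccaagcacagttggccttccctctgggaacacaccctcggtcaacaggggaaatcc
G6pc, chr11:101367466-101367765, plus strand: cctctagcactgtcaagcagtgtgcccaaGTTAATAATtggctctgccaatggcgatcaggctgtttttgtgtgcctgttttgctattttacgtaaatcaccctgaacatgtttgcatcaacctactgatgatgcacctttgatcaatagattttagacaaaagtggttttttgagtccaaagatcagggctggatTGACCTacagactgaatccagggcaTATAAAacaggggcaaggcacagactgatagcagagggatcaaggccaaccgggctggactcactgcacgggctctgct
Fbp1, chr13:62888233-62888532, minus strand: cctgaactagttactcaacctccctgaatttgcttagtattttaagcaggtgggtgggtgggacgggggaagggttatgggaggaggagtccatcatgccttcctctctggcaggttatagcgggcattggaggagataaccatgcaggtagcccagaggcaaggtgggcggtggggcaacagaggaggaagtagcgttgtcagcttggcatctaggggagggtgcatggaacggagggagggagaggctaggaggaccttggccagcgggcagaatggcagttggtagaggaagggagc
Slc2a2, chr3:28697653-28697952, plus strand: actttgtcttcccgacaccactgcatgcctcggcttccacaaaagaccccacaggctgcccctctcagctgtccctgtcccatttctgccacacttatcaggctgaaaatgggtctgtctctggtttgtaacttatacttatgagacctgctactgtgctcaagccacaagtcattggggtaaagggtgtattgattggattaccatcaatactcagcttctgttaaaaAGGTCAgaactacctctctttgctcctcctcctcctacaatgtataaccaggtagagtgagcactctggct
Aldoc, first of 2 starts, chr11:78322823-78323122, plus strand: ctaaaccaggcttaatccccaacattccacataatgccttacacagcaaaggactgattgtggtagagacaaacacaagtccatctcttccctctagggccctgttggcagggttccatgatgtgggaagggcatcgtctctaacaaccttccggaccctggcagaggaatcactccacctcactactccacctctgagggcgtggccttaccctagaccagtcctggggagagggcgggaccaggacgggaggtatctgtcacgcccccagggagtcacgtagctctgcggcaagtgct

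In the G6pc window, the HNF1 motif stood 221 bases before the start, AGGTCA on the minus strand 54 bases before it and the TATA box 29 bases before it. Over 32851 promoters of the same length, 0.801% held this HNF1 motif, 16.3% AGGTCA and 13.6% the TATA box. The Pck1 window held the cyclic AMP-response core on the minus strand, 90 bases before the start, and 20.8% of all promoters held this core at some place. The Slc2a2 window held AGGTCA 21 bases before the start. The Fbp1 window and the first Aldoc window held none of these letters. Among the members without a printed promoter, Khk held the cyclic AMP-response core 74 bases before the start, overlapping an E-box that begins 71 bases before it, and 7.15% of all promoters held an E-box. The first Pklr window held AGGTCA and the second the TATA box, the second Aldoc window held the FOXA motif, found in 3.65% of all promoters, and neither Hk1 window had a match. No motif was shared by all of the higher members. A match is a run of letters and does not show binding.

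Liver-type genes were next set against the genes that carry out the same step in brain, muscle or most tissues, over 11 pairs of 8 steps. In 9 pairs both genes had a ratio, and the liver type had the higher one in 8 of them. The difference exceeded 1 on the log2 scale in 5 pairs. Of the liver-type genes with a ratio in these 9 pairs, Pck1, G6pc, Slc2a2 and Gys2 were more than 2-fold higher and Pygl and Pfkl were not, whereas the other types ran from -0.22 to 0.07 and none differed by 2-fold. The pairs share genes, and Slc2a2 and Gys2 enter as bounds. Pfkl was higher than Pfkp by only 0.02. Pck1, G6pc and Slc2a2 were selected with this same contrast in view, so nothing is read from these counts.

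For phosphoenolpyruvate carboxykinase, the mitochondrial form Pck2 had a log2 ratio of 0.07, with signals of 55.4 in the C pool against 58.3 in the CMS pool, 3.49 below that of Pck1. For glucose-6-phosphatase, the widely expressed G6pc3 had -0.02, and G6pc2, the islet form, was not well above background in either pool. The muscle fructose bisphosphatase Fbp2 was not well above background either, so Fbp1 had no partner with a ratio. The gluconeogenic enzymes with a higher signal among these were thus Pck1, G6pc and Fbp1. Of their partners, only Pck2 and G6pc3 had a ratio, and both lay near the median of all genes.

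Glucose transport showed the same order, with at least 1.43 for Slc2a2, -0.22 for Slc2a1, the transporter of the blood-brain barrier, and -0.01 for Slc2a3, the neuronal transporter. Slc2a1 and Slc2a3 were well above background in both pools, with signals of 3220 in the C pool against 2756 in the CMS pool for Slc2a1 and of 6081 against 6059 for Slc2a3.

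The glycogen steps differed among themselves. The liver glycogen synthase Gys2 had a signal of 11.4 in the C pool, below the detection limit, and 129 in the CMS pool, giving a log2 ratio of at least 2.86, beside -0.11 for Gys1. A second Gys2 probe was not well above background in either pool. The liver phosphorylase Pygl had 707 in the C pool against 1123 in the CMS pool, giving a log2 ratio of 0.67, beside -0.21 for the brain form Pygb and -0.08 for the muscle form Pygm. For phosphofructokinase, the liver form Pfkl had -0.10, beside -0.09 for Pfkm and -0.12 for Pfkp, so that the forms of this step could not be separated by their ratios. Pkm, the other pyruvate kinase, had -0.06.

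**Figure D2:**
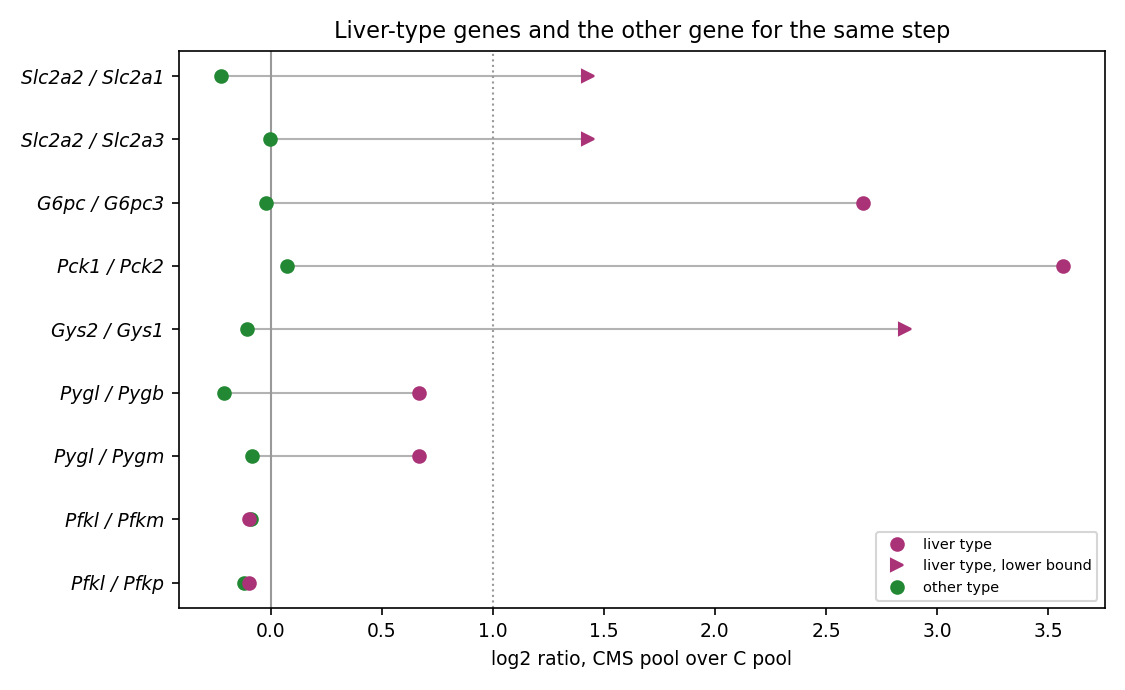
Log2 ratio of the CMS pool over the C pool for the 9 pairs in which both genes had a ratio, with the liver type and the other type joined by a line, triangles for lower bounds and the dotted line at 2-fold. The other types lie between -0.22 and 0.07, and the liver types extend up to 3.57 for Pck1, except Pfkl, which lies among the others.

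The remaining genes of glucose metabolism were described by role, from lists of 90 genes outside the members. Of these, 83 had a ratio, 5 were more than 2-fold higher and 0 more than 2-fold lower, and the median was -0.03. The share higher was 6.02%, beside 1.96% over all genes with a ratio. The lists were chosen with earlier results of these data known, so nothing is read from the difference. The 5 were Gckr, Sds, Gys2, Hnf4a and Igfbp1. Among 11 other genes of gluconeogenesis and fructose metabolism, 9 had a ratio, Gckr alone was more than 2-fold higher and the median was 0.18. Gckr, a fructose phosphate-sensing regulatory protein of liver sugar metabolism, had signals of 44.4 in the C pool against 219 in the CMS pool, giving a log2 ratio of 2.30. The lowest was Pcx, the pyruvate carboxylase of the first bypass step, which astrocytes also use, with signals of 5268 and 5013 and a log2 ratio of -0.07.

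Among 12 genes that supply precursors, 11 had a ratio and Sds alone was more than 2-fold higher. Sds, the serine dehydratase of liver, had a signal of 14.4 in the C pool, below the detection limit, and 130 in the CMS pool, giving a log2 ratio of at least 2.87. Tat, the liver tyrosine aminotransferase, had 508 in the C pool against 848 in the CMS pool, giving a log2 ratio of 0.74, the highest below 2-fold among the listed genes of glucose metabolism outside the members. Got2, the mitochondrial aspartate aminotransferase, was lowest at -0.13, and the median of the list was -0.02. Of 13 glycogen genes, Gys2 alone passed 2-fold, Pygb was lowest and the median was -0.04.

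None of the 17 genes of shared and brain glycolysis differed by 2-fold. Their median was -0.09, and they ran from -0.25 for Pgam2, the muscle phosphoglycerate mutase, to 0.06 for Tpi1, the triose phosphate isomerase. Gapdh, the glycolytic dehydrogenase used as the qRT-PCR reference of the study, had 0.04. The 5 genes that set the level of fructose 2,6-bisphosphate had a median of -0.06 and ran from Pfkfb3 at -0.17 to Pfkfb1 at 0.06. The 7 glucose and lactate transporters of brain had a median of -0.05 and ran from Slc2a1 at -0.22 to Slc2a4 at 0.11. The 8 genes of pyruvate entry into mitochondria had a median of 0.02, from Pdha1 at -0.22 to Pdk1 at 0.11. Dimmer second probes gave -0.01 for Tpi1 and 0.09 for Pfkfb3. In these 4 lists no gene differed by 2-fold in either direction.

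A further list held 17 genes tied to the regulation of gluconeogenesis, not all of them regulators themselves, such as Igfbp1. Of these, 13 had a ratio, 2 were more than 2-fold higher and the median was -0.02. Hnf4a, the nuclear receptor that drives many hepatocyte genes, had a log2 ratio of 3.55. Igfbp1, a secreted binding protein of liver that is repressed by insulin, had signals of 167 in the C pool against 1838 in the CMS pool, giving a log2 ratio of 3.46. Irs2, an adaptor of the insulin receptor, was lowest at -0.23. Foxa1, Foxa2, Foxa3 and Onecut1, further transcription factors of liver, were not well above background in either pool.

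**Figure D3:**
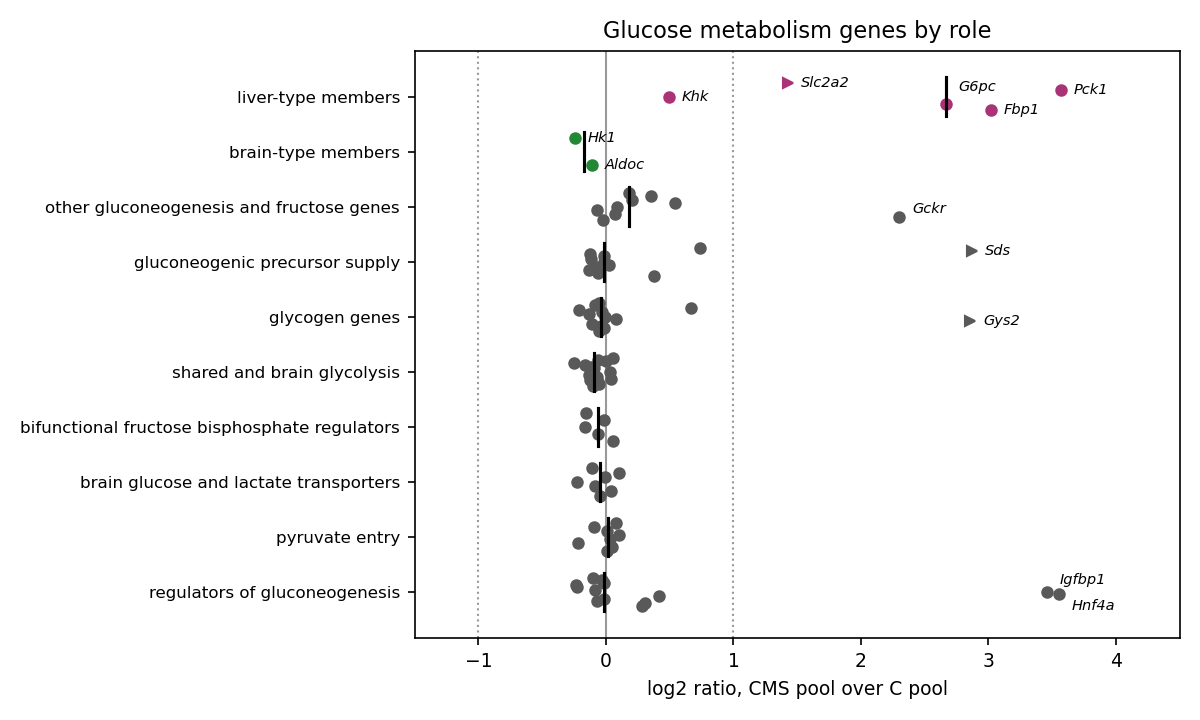
Log2 ratio of the CMS pool over the C pool for each gene with a ratio, by role in glucose metabolism, with triangles for lower bounds, black bars for list medians and dotted lines at 2-fold. The genes beyond 2-fold are named and lie to the right, and the lists of brain glycolysis, transporters and pyruvate entry cluster around 0.

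Markers of cell types were measured beside the members. The marker lists, too, were chosen with earlier results of these data known. All 18 hepatocyte markers were well above background in both pools and 15 were higher in the CMS pool by more than 2-fold, with a median log2 ratio of 3.05. The share higher was 83.3%, beside 1.96% over all genes with a ratio. The summed signal of the 18 markers was 28249 in the C pool against 129442 in the CMS pool, 4.58-fold higher. Ratios ran from 0.68 for Hal, a histidine catabolic enzyme, to 3.53 for Alb, which encodes serum albumin. The brightest in the CMS pool was Serpina1a, a secreted protease inhibitor, with 4275 in the C pool against 35977 in the CMS pool, followed by Trf, the serum iron carrier that oligodendrocytes also make, with 14224 and 23027. The ratios of Fbp1 and G6pc lay inside this range and that of Khk, at 0.49, below it, and Slc2a2 had a bound of 1.43. Pck1, at 3.57 ± 0.22, could not be told from the upper end. The range holds 1 probe per gene, and a second probe of another hepatocyte marker had 3.77. The part of hepatocyte RNA in the ratios of the members was not tested.

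Other tissues that use gluconeogenic genes were examined in the same way. Of 11 markers of kidney proximal tubule, 6 had a ratio, with a median of -0.13. The summed signal was 1723 in the C pool against 1554 in the CMS pool. No ratio as taken passed 2-fold, but that of Slc5a2 was a bound, at most -0.58. Slc5a2 had signals of 26.4 in the C pool against 7.36 in the CMS pool, where it was not well above background. Its measured signals without the bound gave -1.84 ± 0.93. Slc22a6 and Slc22a8, organic anion transporters, were the brightest, and Slc5a12, a lactate transporter, was highest at 0.31. Slc22a12, Lrp2, Kap, Slc7a13 and Napsa were not well above background in either pool. Of 10 markers of intestinal epithelium, 5 had a ratio and the summed signal was 536 in the C pool against 602 in the CMS pool. Fabp2, a fatty acid-binding protein, was higher at 1.51 with signals of 57.3 and 164, the sucrase Sis was at most -1.18, the lactase Lct, the brightest, had 0.04, and Alpi, Cdx1, Cdx2 and Slc5a1 were not well above background. Of 10 islet markers, 7 had a ratio, none differed by 2-fold and the median was -0.04, with a summed signal of 42328 in the C pool against 40100 in the CMS pool. Chga and Sst, which neurons also express, were the brightest, Nkx6-1 was highest at 0.29, and Iapp, Pdx1 and Slc30a8 were not well above background. The summed signals of the kidney, intestinal and islet lists in the CMS pool were thus 0.902, 1.12 and 0.947 times those in the C pool. These sums include genes not well above background and mostly reflect the brightest genes of each list. In the islet list, Chga had 23462 in the C pool against 21040 in the CMS pool, and Sst had 17954 against 18186.

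Erythroid markers bear on Pklr, which red cells also express. Of 7 markers, 4 had a ratio, all above 0 and below 2-fold, with a median of 0.45. Their brightest were Hba-a1 and Hbb-b2, globin genes, and Slc4a1, the red cell anion exchanger, was highest at 0.62. The summed signal was 24843 in the C pool against 33002 in the CMS pool, and Epb42 was not well above background. Pklr was not well above background in either pool.

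Markers of brain cell types were also measured, which do not tell the PFC from other brain regions. All 10 neuron markers, all 10 astrocyte markers, all 7 oligodendrocyte markers and all 6 microglia markers were well above background in both pools, and none differed by 2-fold. Their medians were -0.04 for neurons, with Syt1 and Snap25 brightest and Slc17a7 highest at 0.20, and 0.03 for astrocytes, with Atp1b2 and S100b brightest and S100b highest at 0.06. Aldoc had -0.11 beside this astrocyte median. The median was -0.15 for oligodendrocytes, with Mbp and Cnp brightest and Mbp highest at 0.11, and 0.05 for microglia, with Csf1r and Cx3cr1 brightest and Cx3cr1 highest at 0.16. Of 8 choroid plexus markers, 7 had a ratio, with a median of 0.11, Enpp2 and Aqp1 brightest and Slc4a5 highest at 0.35 or more. The neuron, astrocyte, oligodendrocyte and microglia markers were thus present in both pools, and their ratios were close to those of the glycolysis genes.

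**Figure D4:**
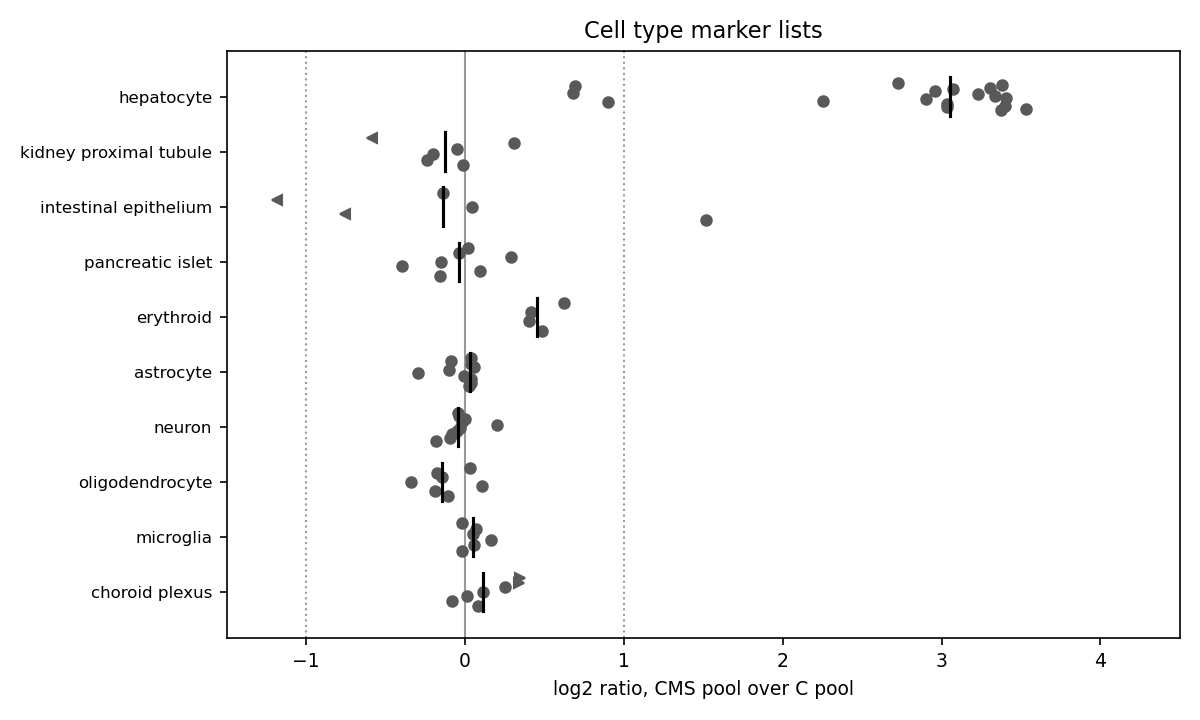
Log2 ratio of the CMS pool over the C pool for each marker gene with a ratio, by cell type, with triangles for bounds, black bars for list medians and dotted lines at 2-fold. Hepatocyte markers have a median of 3.05, and the medians of the other lists lie between -0.15 and 0.45.

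The ratios of the members were recomputed under 12 alternatives. Pck1 ran from 2.87 to 3.59, Fbp1 from 2.67 to 3.04 and G6pc from 2.31 to 2.68, so that each was higher in the CMS pool by more than 2-fold under every one of them. Khk ran from 0.32 to 0.52, Aldoc from -0.28 to -0.09 and Hk1 from -0.41 to -0.19, none past 2-fold. Slc2a2 ran from 0.68 to 3.61 over 11 alternatives and could not be given a ratio where both arrays had to be well above background.

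**Figure D5:**
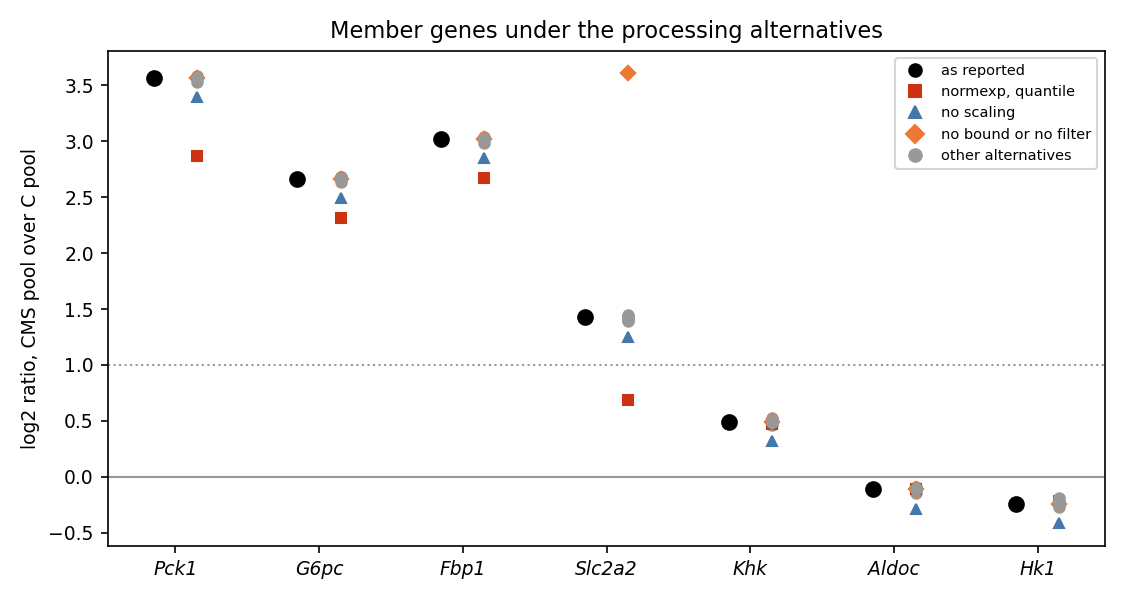
Log2 ratio of the CMS pool over the C pool for the 7 members with a ratio, as reported and under each alternative, with the dotted line at 2-fold. Pck1, G6pc and Fbp1 stay above 2-fold throughout, and Slc2a2 spans the line with values from 0.68 to 3.61.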

How the data were processed

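One-color Agilent arrays were run on pooled PFC RNA, 1 pool and 1 array per group. The authors deposited scanner files with processed signal intensities on a linear scale, which are corrected for background and for spatial trend, made with Agilent Feature Extraction 10.10.1.1 per the submitters' processing notes. A second deposited table of intensities equalled the processed signal times 1.80 (C) and 2.05 (CMS), factors that set the mean to 2500 after 2% of spots is trimmed at each end.

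Control spots and outlier spots (130 in C, 133 in CMS) were left out and spots of a probe averaged. A share of at least 0.5 of its spots had to be well above background for a probe to count as such. Arrays, with mean processed intensities of 2946 and 2611, were scaled to a mean of 2500, bounds were set and log2 ratios taken. A probe dim on both arrays had no ratio. The brightest probe with a ratio stood for a gene. Accessions were named through the RefSeq table of GRCm38.p6, which named 30740 of 59305 spots. The files' own annotation is of another build, so no gene coordinates of the arrays are printed. Muc2, Hbb-b1 and Ahsp had no named probe. A few genes of the lists and the pairs that need them are not reported here, and the lists were counted without them.

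Members and lists were chosen with earlier results of these data known. The genes named were the members, all genes of the pairs, Gapdh, Hnf4a, the genes past 2-fold and the highest and lowest of each pathway list, and the brightest 2 and the highest of each marker list; further genes are named where their signals were not well above background or closest to the 2-fold limit, and Hal as the lowest hepatocyte marker. With 1 array per group no test was made, and precision is limited by the number of arrays. The alternatives were scaling to the 75th percentile, the median or the trimmed mean, quantile normalization, no scaling, normexp on median spot intensities with an offset of 50 and quantile normalization, the deposited table, no bound, both arrays above background, no filter, outlier spots kept and the mean of all probes. The calling of ratios was tested on simulated data. Calculations used Python 3.11.15, numpy 2.4.6, pandas 2.3.3, matplotlib 3.10.9 and R 4.3.3 with limma 3.58.1.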

Additional observations from a re-analysis of the deposited data

How the results depend on the processing

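No paired analysis was possible because each group has 1 array, and no array could be left out. A shift of a log2 ratio above 0.13, the SD between spots, of a median above the error this SD gives it, or of a count above 1.5 times was counted as a move. Of 119 alternative values for the members, their medians and the difference of the medians, 96 did not move by this measure, 23 moved and 0 changed sign. Part of the 96 could not move. Bounds, filters and averaging of probes leave a member with 1 probe well above background on both arrays as it is. Scaling by 1 factor per array leaves the difference of the medians as it is. Without scaling, the median of all genes was -0.20 in place of -0.03, and the values were 3.39 for Pck1, 2.49 for G6pc, 2.85 for Fbp1, 1.25 for Slc2a2, 0.32 for Khk, -0.28 for Aldoc, -0.41 for Hk1, 2.49 for the liver-type median and -0.35 for the brain-type median. The count of genes lower by more than 2-fold was then 249, and 63.2% of the genes past 2-fold were higher, against 77.7% as reported. With normexp correction and quantile normalization, the values were 2.87 for Pck1, 2.31 for G6pc, 2.67 for Fbp1, 0.68 for Slc2a2, 2.31 for the liver-type median and 2.48 for the difference, and 265 genes were higher and 38 lower. Without the bound, Slc2a2 had 3.61, the liver-type median was 3.02, the difference 3.20 and 315 genes were lower. With both arrays above background the median was 2.84, the difference 3.02, and 294 genes were higher and 44 lower, since fewer genes remain. Without a filter, Slc2a2 had 3.61, the liver-type median was 2.84, the difference 3.02, and 1493 genes were higher and 1069 lower, since probes at background then enter. Without scaling, every log2 ratio shifted by the same amount, which is set by the scaling factors of the 2 arrays. The cause of the remaining moves was not tested. The median signal over the detection limit was 3.64 in the C pool against 3.76 in the CMS pool. Repeated spots varied most for the dimmest probes, with an SD of 0.26 for mean signals below 100, and Slc2a2 and Pklr lay in that range.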
